A study of Homo sapiens with 48 samples.

Results

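The 8 genes described here encode MAPK phosphatases, inhibitors of RAS and transcription factors downstream of ERK, and they were taken by name: DUSP2, DUSP4, DUSP5, DUSP10, SPRED1, SPRED2, ETV4 and ETV5. The choice was made with earlier results of these data known, so the share of these genes called is no independent support. All 8 were among the 25066 genes of the count table, and all 8 had enough reads to be among the 13881 genes tested. RNA sequencing counts were available for 2 human lymphoma cell lines, TMD8 and HBL1, both derived from diffuse large B cell lymphoma and both labelled as engineered to carry Cas9, the controls included. The vehicle, dimethyl sulfoxide (DMSO), was compared with 5 µM NGI-1, which inhibits the oligosaccharyltransferase that attaches N-glycans to proteins, with 50 nM acalabrutinib, an inhibitor of the B cell receptor kinase BTK, and with 20 nM copanlisib, an inhibitor of the lipid kinase PI3K. Exposure lasted 3, 6 or 24 h, which gave 24 groups of 2 libraries (48 in all) and the question of how far each compound changes transcription in each line. Each genotype here is thus 1 cell line. The labels call the treatments duplicates without saying whether a group's 2 libraries are separate cultures, and the p-values below therefore describe the spread between such libraries, which may be technical alone.

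In B cells, signals from the B cell receptor pass through RAS, RAF and MEK to the kinase ERK, which enters the nucleus and switches on transcription factors. Dual-specificity phosphatases (DUSPs) of the MAPK phosphatase family remove the phosphates that activate ERK, JNK or p38, and SPRED proteins bind neurofibromin and hold back RAS. Several of these brakes are themselves transcribed in response to ERK, and so are ETV4 and ETV5, transcription factors of the PEA3 group of the ETS family. Their mRNA levels are therefore widely used as readouts of the pathway's output.

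The libraries held 7165377 to 11999050 counted reads. B cell markers were above 1 CPM (counts scaled to library size) in both lines (7 of 7), and so were the markers of activated B cell-like lymphoma (4 of 4). Markers of T and NK cells summed to at most 2.64 CPM in any library and those of myeloid cells to at most 3.67 CPM. In the list of stromal and epithelial markers, 5 of 8 averaged above 1 CPM in TMD8 and 2 of 8 in HBL1. Their sum was 349 to 679 CPM in TMD8, led by VIM, with the epithelial CDH1 at a mean of 105 CPM. In HBL1 the sum was 12.9 to 25.8 CPM, led by EPCAM. Whether these genes move with the results below was not tested. A lower level in bulk RNA can come from fewer cells that carry an mRNA or from less of it per cell, and the data cannot tell these apart.

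Promoter sequence is shown for DUSP2 and DUSP10, the members called lower in the most comparisons with DMSO. The windows come from RefSeq on GRCh38.p14, run from 250 bases before to 50 bases after a transcript's start, and are printed 5′ to 3′ on the gene's strand, with searched motifs in capitals. The reads had been counted on hg19, so these windows serve as sequence only. DUSP2 lies at chr2:96145391-96145690 (minus strand) and the upstream window of DUSP10 at chr1:221742040-221742339 (minus strand).
DUSP2: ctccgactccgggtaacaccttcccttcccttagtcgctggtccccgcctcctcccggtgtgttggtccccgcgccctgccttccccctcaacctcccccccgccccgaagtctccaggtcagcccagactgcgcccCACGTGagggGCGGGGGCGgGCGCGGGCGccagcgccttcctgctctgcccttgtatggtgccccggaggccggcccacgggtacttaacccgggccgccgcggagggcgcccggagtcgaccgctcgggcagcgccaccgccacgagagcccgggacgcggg
DUSP10: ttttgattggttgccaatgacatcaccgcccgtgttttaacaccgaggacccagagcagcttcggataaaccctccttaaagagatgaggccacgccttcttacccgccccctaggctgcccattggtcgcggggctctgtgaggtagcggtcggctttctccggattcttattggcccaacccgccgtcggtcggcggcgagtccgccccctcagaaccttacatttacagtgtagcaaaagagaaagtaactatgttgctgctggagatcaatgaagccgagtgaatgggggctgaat
The DUSP2 window held 2 matches to the EGR letters GCGNGGGCG, starting at -103 and -93 from the start, and 1 to the E-box CACGTG at -113, none of them overlapping. Both strands were searched. Of 35116 promoter windows of 300 bases, 9.43% held the EGR letters and 7.26% the E-box. No match to any of the 8 motifs searched was found in the DUSP10 window. The others were AP-1 (TGANTCA, in 7.71% of windows), CRE (TGACGTCA, 1.85%), ETS (CCGGAAG, 10.26%), FOXO (GTAAACA, 3.42%), the NF-kB site (11.27%) and the CArG box (1.29%). A second DUSP10 window, 1 window of SPRED1 and 1 of SPRED2 also held none of the 8, while another SPRED2 window held 2 AP-1 matches, at -6 and +35. DUSP4, DUSP5, ETV4 and ETV5 were not matched to a window. A match describes letters and not a bound site.

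Against DMSO, the 8 genes moved mostly downward. Of 144 tests, 48 (33.3%) were called lower and 3 (2.08%) higher at an adjusted p under 0.05 in edgeR's quasi-likelihood test, with adjustment over all genes of a comparison. All genes tested were called lower in 6.17% and higher in 5.37% of tests in the same comparisons. The 3 calls in the higher direction were all DUSP5 in TMD8 at 24 h, and DUSP4 in HBL1 had too few reads to give a call. DUSP2, which dephosphorylates ERK in the nucleus, was lower in 16 of 18 comparisons. DUSP10 was lower in 8, ETV4 in 7, DUSP4 and SPRED2 in 4 each, SPRED1 and ETV5 in 3 each, and DUSP5 was lower in 3 and higher in 3. The 3 compounds of 1 line and time share their 2 DMSO libraries, so these comparisons are not independent.

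At 3 h, few genes had changed anywhere. In TMD8, 1 of 8 members was lower with NGI-1 (0.173% of all genes tested were lower), 1 with acalabrutinib (0.389%) and 3 with copanlisib (1.11%). In HBL1, acalabrutinib lowered 1 (0.216%) and copanlisib 3 (1.29%). NGI-1 in HBL1 gave 0 calls in edgeR and 0 in DESeq2, with 1 member at an unadjusted p under 0.05, where 0.353% of all genes were called.

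By 6 h the members lower in TMD8 numbered 1 with NGI-1 (1.98% of all genes lower), 3 with acalabrutinib (2.88%) and 6 with copanlisib (7.46%). In HBL1 they were 3 with acalabrutinib (3.16%) and 3 with copanlisib (5.34%). With NGI-1 in HBL1, edgeR and DESeq2 again called 0, with 2 members at an unadjusted p under 0.05, beside 1.13% of all genes called.

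At 24 h, 4 members were lower in TMD8 with each compound, beside 14.9% of all genes for NGI-1, 15.5% for acalabrutinib and 16% for copanlisib. The 1 member higher with each compound stood beside 15.7%, 15.5% and 15.8% of all genes, a share near that background. In HBL1, NGI-1 lowered 4 (11.4%), acalabrutinib 2 (11.4%) and copanlisib 5 (17.8%). Over the members with reads in both groups, the median log2 change ran from -0.78 to -0.05 in the 18 comparisons, and that over all genes from -0.02 to 0.03.

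**Figure D1:**
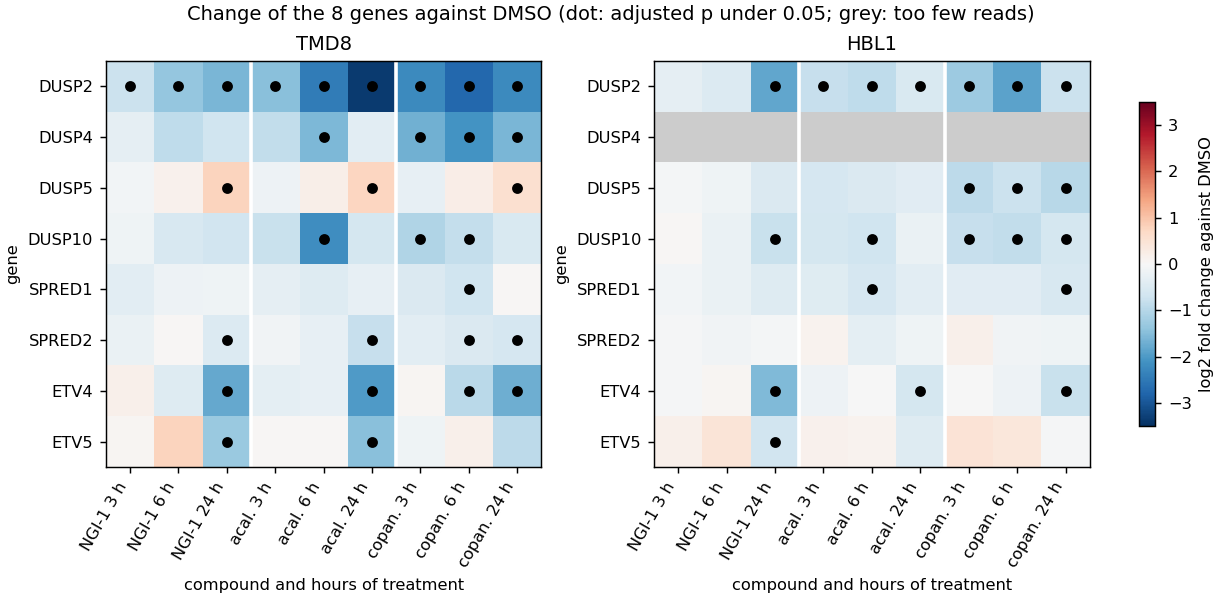
Log2 fold change of each of the 8 genes (rows) against DMSO for each compound and time (columns, in hours) in TMD8 and HBL1; blue is lower, red higher, and a dot marks an adjusted p under 0.05. DUSP2 carries 16 dots, DUSP5 is the only row with red dots (TMD8 at 24 h), and DUSP4 is left grey in HBL1, where 24 libraries held 7 reads in all.

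DUSP2 in TMD8 fell at every time with every compound. At 3 h, DMSO libraries read 65.8 and 76.2 CPM, NGI-1 38.6 and 46.3, acalabrutinib 23.4 and 28.3, and copanlisib 16.1 and 14.2. At 6 h they read 76.4 and 73.9 with DMSO, 29 and 30.1 with NGI-1, 13.3 and 14.4 with acalabrutinib, and 11 and 11.1 with copanlisib. At 24 h the values were 21.4 and 21.8 with DMSO, 7.59 and 6.67 with NGI-1, 2.13 and 2.1 with acalabrutinib, and 5.06 and 3.98 with copanlisib. No treated library overlapped with DMSO at any time, and DMSO itself was much lower at 24 h. The log2 change with NGI-1 was -0.74 (SE 0.14) at 3 h, -1.35 (SE 0.14) at 6 h and -1.6 (SE 0.19) at 24 h. For acalabrutinib it was -1.46 (SE 0.15), -2.44 (SE 0.16) and -3.35 (SE 0.24, 10.2-fold lower). Copanlisib gave -2.22 (SE 0.15), -2.76 (SE 0.16, 6.79-fold lower) and -2.24 (SE 0.2). The largest adjusted p of these 9 was 0.0013, for NGI-1 at 3 h, and that call alone was lost when a library was left out, without NGI-1 replicate 1 (adjusted p = 0.19) or DMSO replicate 2 (adjusted p = 0.078).

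In HBL1, DUSP2 fell with acalabrutinib and copanlisib at each time and with NGI-1 at 24 h. At 3 h, DMSO libraries read 64.9 and 86.6 CPM, NGI-1 51.2 and 70.8, acalabrutinib 41 and 44.5, and copanlisib 28.5 and 34.3. At 6 h they read 65.1 and 79.4 with DMSO, 49.7 and 53.1 with NGI-1, 35 and 42.4 with acalabrutinib, and 17.8 and 21.6 with copanlisib. The 24 h values were 28.2 and 31.4 with DMSO, 8.42 and 8.45 with NGI-1, 21.5 and 19.5 with acalabrutinib, and 16.1 and 19.6 with copanlisib. Only the NGI-1 libraries at 3 h overlapped with DMSO, and at 24 h NGI-1 was the lowest of the 3 compounds. NGI-1 gave -0.31 (SE 0.13, adjusted p = 0.74) at 3 h and -0.49 (SE 0.13, adjusted p = 0.06) at 6 h, which missed the threshold. The 6 h value passed without a filter on low counts (0.0061), with a stricter one (0.046) or with a block for replicate number within each line and time. NGI-1 then gave -1.82 (SE 0.18, adjusted p = 1e-09) at 24 h. Acalabrutinib changed DUSP2 by -0.82 (SE 0.13), -0.9 (SE 0.14) and -0.54 (SE 0.16), and copanlisib by -1.27 (SE 0.14), -1.87 (SE 0.15) and -0.74 (SE 0.16). Of these, the acalabrutinib call at 3 h was lost without acalabrutinib replicate 1 (adjusted p = 0.052) or DMSO replicate 2 (adjusted p = 0.12). At 24 h it was lost without DMSO replicate 2 (adjusted p = 0.094) or acalabrutinib replicate 2 (adjusted p = 0.11).

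**Figure D2:**
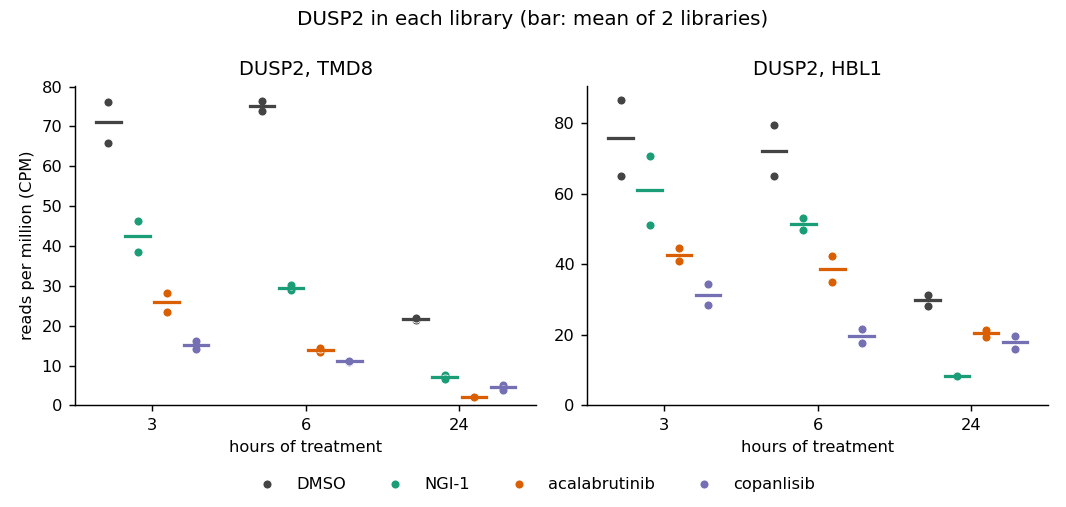
DUSP2 level in CPM (vertical axis, from 0) against hours of treatment in TMD8 and HBL1; each point is 1 library and each bar the mean of 2. In TMD8 at 24 h acalabrutinib is lowest (mean 2.11 CPM against 21.6 with DMSO), while in HBL1 at 24 h NGI-1 is lowest (8.44 against 29.8).

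The DUSP2 response differed between the lines in 4 of 9 tests. Of all genes, 0.122% at 6 h and 2.02% at 24 h were called lower in that test for acalabrutinib. For copanlisib the shares were 0.245% and 1.99%. In TMD8 minus HBL1, the effect of acalabrutinib was lower by a log2 value of -1.54 (SE 0.21, adjusted p = 4.1e-05) at 6 h and -2.81 (SE 0.3, adjusted p = 3.9e-08) at 24 h. At 3 h the acalabrutinib difference was -0.63 (SE 0.2, adjusted p = 1, not called). For copanlisib the line difference was -0.95 (SE 0.21, adjusted p = 0.069, not called) at 3 h, -0.89 (SE 0.22, adjusted p = 0.043) at 6 h and -1.5 (SE 0.27, adjusted p = 0.00022) at 24 h. The 6 h call for copanlisib was the weak one. It was lost without DMSO replicate 1 (adjusted p = 0.16), DMSO replicate 2 (0.085), copanlisib replicate 1 (0.2) or copanlisib replicate 2 (0.21) of TMD8, and without DMSO replicate 1 (0.28) or copanlisib replicate 2 (0.38) of HBL1. The NGI-1 effect was not called different at any time, at -0.43 (95% interval -0.82 to -0.04) at 3 h, -0.86 (-1.26 to -0.46, adjusted p = 0.15) at 6 h and 0.22 (-0.34 to 0.77) at 24 h.

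The order of the compounds on DUSP2 at 24 h was thus opposite in the lines for NGI-1 and acalabrutinib. DUSP2 was higher with NGI-1 than with acalabrutinib in TMD8, by 1.75 (SE 0.29, adjusted p = 0.00017), and lower in HBL1, by -1.28 (SE 0.19, adjusted p = 1.1e-05). In HBL1 it was also lower with NGI-1 than with copanlisib, by -1.08 (SE 0.19, adjusted p = 0.00019). Copanlisib minus acalabrutinib in TMD8 at 24 h was 1.1 (95% interval 0.46 to 1.75) and missed the threshold after adjustment (0.13). In HBL1 at 24 h that difference was -0.2 (95% interval -0.54 to 0.14).

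At the early times NGI-1 left DUSP2 higher than copanlisib did in both lines. In TMD8 that difference was 1.48 (SE 0.16) at 3 h and 1.42 (SE 0.17) at 6 h, and in HBL1 0.97 (SE 0.14) and 1.38 (SE 0.15), with adjusted p of at most 1e-05. Against acalabrutinib in TMD8, NGI-1 was higher by 1.09 (SE 0.17, adjusted p = 1.6e-05) at 6 h. The same difference at 3 h was 0.72 (SE 0.15, adjusted p = 0.0041), lost without acalabrutinib replicate 1 (0.23) or NGI-1 replicate 2 (0.17). Copanlisib gave lower DUSP2 than acalabrutinib in TMD8 at 3 h (-0.76, SE 0.17, adjusted p = 0.021) and in HBL1 at 6 h (-0.97, SE 0.16, adjusted p = 0.0024). The TMD8 call was lost without copanlisib replicate 1 (0.12), copanlisib replicate 2 (0.29) or acalabrutinib replicate 2 (0.58), and the HBL1 call without copanlisib replicate 1 (0.41) or acalabrutinib replicate 2 (0.2). Over all 8 genes, 18 pairings of compounds gave 144 tests, of which 20 were called, 11 of them for DUSP2.

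In the direction of the member calls, small shares of all genes tested were called between the compounds. In either direction the largest share was 6.8%, for NGI-1 against copanlisib at 6 h in HBL1. Between NGI-1 and copanlisib, the shares of all genes higher with NGI-1 were 1.55% at 3 h and 3.31% at 6 h in TMD8 and 1.95% and 4% in HBL1, and 2.33% were lower with NGI-1 at 24 h in HBL1. Between NGI-1 and acalabrutinib, the shares higher with NGI-1 were 0.937%, 2.41% and 1.12% at 3, 6 and 24 h in TMD8 and 0.778% at 3 h in HBL1, and 1.65% were lower at 24 h in HBL1. Lower with copanlisib than with acalabrutinib were 0.108% of genes at 3 h in TMD8 and 0.072% at 6 h in HBL1. In the remaining 6 pairings edgeR and DESeq2 each called 0 members. For copanlisib against acalabrutinib these were 3 h and 24 h in HBL1 (1 member each at an unadjusted p under 0.05, beside 0.0216% and 0.101% of all genes called) and 6 h and 24 h in TMD8 (2 and 3 members, beside 0.281% and 0.497%). For NGI-1 they were 6 h in HBL1 against acalabrutinib (2 members, beside 3.54%) and 24 h in TMD8 against copanlisib (1 member, beside 1.43%).

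The change of the DUSP2 effect over time was called for some compounds, and differences between compounds in that change were not tested. The effect at 24 h minus that at 3 h was -1.89 (SE 0.3, adjusted p = 1.9e-05) for acalabrutinib in TMD8 and -1.51 (SE 0.22, adjusted p = 2e-05) for NGI-1 in HBL1. For NGI-1 in TMD8 it was -0.86 (SE 0.24, adjusted p = 0.013), and it missed the threshold without DMSO replicate 1 at 3 h (0.065), NGI-1 replicate 2 at 3 h (0.084) or NGI-1 replicate 2 at 24 h (0.087). Copanlisib in TMD8 gave a difference of -0.02 (95% interval -0.52 to 0.48). In HBL1, acalabrutinib gave 0.29 (-0.14 to 0.71) and copanlisib 0.53 (0.1 to 0.97, adjusted p = 0.11), both not called.

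DUSP4 encodes a phosphatase that acts on ERK, JNK and p38, and its reads came almost wholly from TMD8. The 24 TMD8 libraries held 545 reads, with at most 64 in 1 library, while the 24 HBL1 libraries held 7 reads, with 19 libraries at 0. Under DMSO at 3 h there were 97 reads in TMD8 and 0 in HBL1, at least 38.2-fold higher against a floor of 3 reads over the group. The ratio was 50.1 (95% counting interval 13.5 to 420) at 6 h and 30.6 (5.13 to 1250) at 24 h, on 94 against 2 and 33 against 1 reads. These limits cover counting error only, and no compound effect could be read in HBL1.

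In TMD8, DUSP4 fell with copanlisib at all times and with acalabrutinib at 6 h. DMSO libraries read 6.79 and 4.77 CPM at 3 h, 5.43 and 4.63 at 6 h, and 1.94 and 1.43 at 24 h. With copanlisib they read 1.55 and 2.05, 1.43 and 0.929, and 0.695 and 0.362. With acalabrutinib at 6 h they read 2.21 and 1.2, also below both DMSO libraries. The copanlisib changes were -1.69 (SE 0.39, adjusted p = 0.013) at 3 h, -2.1 (SE 0.41, adjusted p = 0.00051) at 6 h and -1.6 (SE 0.56, adjusted p = 0.027) at 24 h, and acalabrutinib gave -1.56 (SE 0.4, adjusted p = 0.015) at 6 h. Of these 4, only copanlisib at 6 h did not depend on a single library. At 3 h the call was lost without DMSO replicate 1 (0.27), copanlisib replicate 1 (0.21) or copanlisib replicate 2 (0.068), and DESeq2 gave no adjusted p. At 24 h it was lost without DMSO replicate 1 (0.15) or copanlisib replicate 2 (0.19) and in DESeq2 (0.054). For acalabrutinib it was lost without DMSO replicate 1 (0.16) or acalabrutinib replicate 2 (0.31), and DESeq2 again gave no adjusted p. NGI-1 gave -0.31, -0.88 and -0.69 at 3, 6 and 24 h in TMD8, none of them called (adjusted p of 0.94, 0.22 and 0.33).

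DUSP5, a nuclear phosphatase specific for ERK, was called higher in TMD8, at 24 h with each compound, and lower in HBL1, with copanlisib at each time. In TMD8 at 24 h, DMSO libraries read 126 and 137 CPM, NGI-1 227 and 221, acalabrutinib 231 and 208, and copanlisib 191 and 194. All 6 treated libraries lay above both DMSO libraries. The log2 change was 0.77 (SE 0.15, adjusted p = 7.8e-05) with NGI-1, 0.74 (SE 0.15, adjusted p = 0.00013) with acalabrutinib and 0.55 (SE 0.15, adjusted p = 0.0034) with copanlisib. The copanlisib call was lost without DMSO replicate 1 (adjusted p = 0.051). Pairwise differences between the compounds there ran from -0.19 to 0.22, none called, with 95% intervals within -0.49 and 0.52.

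The rise of DUSP5 in TMD8 was set against a control that had itself fallen. DMSO libraries read 209 and 233 CPM at 3 h and 131 and 147 at 6 h, and the fall from 3 to 24 h was -0.75 (SE 0.15, adjusted p = 0.00012). At 3 h the treated libraries read 182 to 216 CPM, and no compound was called against DMSO (log2 changes of -0.09, -0.18 and -0.28 for NGI-1, acalabrutinib and copanlisib). The effect at 24 h exceeded that at 3 h by 0.86 (SE 0.21, adjusted p = 0.0041) for NGI-1, 0.92 (SE 0.21, adjusted p = 0.0017) for acalabrutinib and 0.83 (SE 0.21, adjusted p = 0.0065) for copanlisib. The copanlisib value was not called by DESeq2 (0.057).

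In HBL1, DUSP5 was far lower and fell with copanlisib. DMSO libraries read 19 and 28.8 CPM at 3 h, 23.6 and 21.6 at 6 h, and 10.5 and 12.9 at 24 h. Copanlisib libraries read 10.1 and 15.3, 13.6 and 13, and 5.54 and 6.35, all below both DMSO libraries of their time. The changes were -0.92 (SE 0.21, adjusted p = 0.01), -0.76 (SE 0.22, adjusted p = 0.017) and -0.97 (SE 0.28, adjusted p = 0.0064). At 3 h the call was lost without copanlisib replicate 1 (0.25) or DMSO replicate 2 (0.3), and with a separate fit of each line (0.09). At 6 h it was lost without DMSO replicate 1 (0.14), copanlisib replicate 1 (0.078) or copanlisib replicate 2 (0.13), and with the separate fit (0.079). At 24 h it was lost without copanlisib replicate 1 (0.071) or DMSO replicate 2 (0.064). With NGI-1 the changes were -0.08, -0.14 and -0.51 and with acalabrutinib -0.6, -0.5 and -0.39, none of them called. Without a filter on low counts, acalabrutinib at 3 h (0.0032) and 6 h (0.011) and NGI-1 at 24 h (0.038) passed. Each of these also passed with a block for replicate number within each line and time. At 3 h in HBL1 DUSP5 was higher with NGI-1 than with copanlisib, by 0.84 (SE 0.21, adjusted p = 0.015), a call that ended without copanlisib replicate 1 (0.37) or NGI-1 replicate 2 (0.5) and with the separate fit (0.12).

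The line difference of the DUSP5 effect at 24 h was called for every compound. TMD8 minus HBL1 gave 1.28 (SE 0.3, adjusted p = 0.0097) for NGI-1, 1.13 (SE 0.3, adjusted p = 0.017) for acalabrutinib and 1.52 (SE 0.31, adjusted p = 0.0016) for copanlisib. Only the copanlisib difference did not depend on 1 library of the comparison. The NGI-1 value was lost without HBL1 NGI-1 replicate 1 (0.16) or HBL1 DMSO replicate 2 (0.096). The acalabrutinib value was lost without TMD8 DMSO replicate 1 (0.055), TMD8 acalabrutinib replicate 1 (0.052), HBL1 acalabrutinib replicate 1 (0.17) or HBL1 DMSO replicate 2 (0.14). Of 8 genes and 9 line differences, giving 72 tests, 7 were called, 4 for DUSP2 and 3 for DUSP5. The 9 tests of DUSP4 among them could not be read, as the HBL1 libraries held 7 DUSP4 reads in all. Among all genes, those lower in this difference were 0.122% for acalabrutinib and 0.245% for copanlisib at 6 h, and 2.02% and 1.99% at 24 h, while 1.79%, 2.23% and 2.19% were higher for NGI-1, acalabrutinib and copanlisib at 24 h. At 3 h edgeR called 0 members for each compound and DESeq2 0, 0 and 1, with 1, 1 and 3 at an unadjusted p under 0.05 for NGI-1, acalabrutinib and copanlisib, beside 0.0072%, 0% and 0.0576% of all genes. For NGI-1 at 6 h edgeR and DESeq2 called 0, with 1 at an unadjusted p under 0.05, beside 0.0216%.

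**Figure D3:**
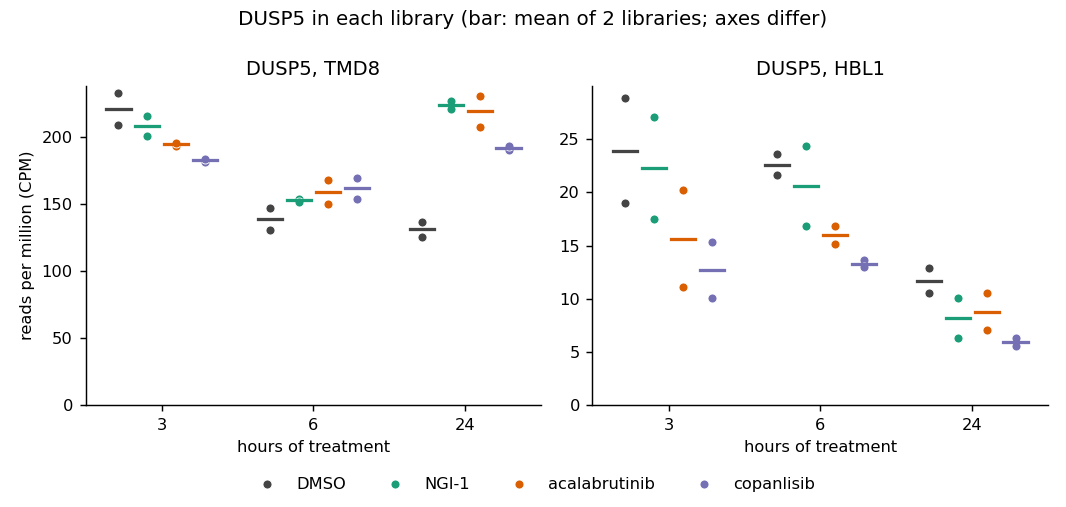
DUSP5 level in CPM (vertical axes from 0, with different ranges) against hours of treatment; each point is 1 library and each bar the mean of 2. In TMD8 at 24 h all treated libraries (191 to 231 CPM) lie above DMSO (126 and 137), and in HBL1 copanlisib lies below DMSO at each time.

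DUSP10 encodes a phosphatase that prefers JNK and p38 to ERK, and it was lower in 8 comparisons. Across these, the share of all genes lower ran from 1.11% to 17.8%. The deepest fall was with acalabrutinib in TMD8 at 6 h, where DMSO read 4.07 and 5.73 CPM and acalabrutinib 1.16 and 0.984. The groups lay far apart, with a log2 change of -2.18 (SE 0.31, adjusted p = 4.7e-06), though on only 19 reads in the treated group. At 24 h acalabrutinib stood at -0.61 (95% interval -1.23 to 0.02). Copanlisib lowered DUSP10 in TMD8 by -1.05 (SE 0.28, adjusted p = 0.035) at 3 h, from 4.03 and 4.92 to 1.66 and 2.62 CPM, and by -0.84 (SE 0.25, adjusted p = 0.018) at 6 h, to 2.63 and 2.79 CPM. Those calls were fragile. At 3 h the call was lost without DMSO replicate 1 (0.1), DMSO replicate 2 (0.24) or copanlisib replicate 1 (0.41), with a separate fit of each line (0.076) and in DESeq2 (0.071). At 6 h it was lost without copanlisib replicate 1 (0.097), copanlisib replicate 2 (0.096) or DMSO replicate 2 (0.27).

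In HBL1, where DUSP10 was higher, DMSO libraries read 20.2 and 22.3 CPM at 3 h, 19.7 and 21 at 6 h, and 15.6 and 15.8 at 24 h. Copanlisib libraries read 11.2 and 13.1, 10.8 and 11.6, and 10.3 and 10.1. Every copanlisib library lay below both DMSO libraries of its time. The log2 changes were -0.81 (SE 0.17, adjusted p = 0.0031), -0.87 (SE 0.17, adjusted p = 0.00047) and -0.62 (SE 0.18, adjusted p = 0.0058), the first of them lost without copanlisib replicate 1 (0.085). Acalabrutinib at 6 h read 10.9 and 14 CPM, a change of -0.7 (SE 0.17, adjusted p = 0.0076), lost without acalabrutinib replicate 1 (0.17) or DMSO replicate 2 (0.056). NGI-1 read 18.3 and 24.9 CPM at 3 h, around DMSO, and 8.85 and 9.6 at 24 h, below it, with a change at 24 h of -0.77 (SE 0.18, adjusted p = 0.0017).

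DUSP10 was higher with NGI-1 than with acalabrutinib in TMD8 at 6 h, by 1.61 (SE 0.34, adjusted p = 0.002), lost without acalabrutinib replicate 2 (0.077). In HBL1 at 3 h it was higher with NGI-1 than with copanlisib by 0.84 (SE 0.17, adjusted p = 0.0012), lost without copanlisib replicate 1 (0.063) or NGI-1 replicate 2 (0.12). Against acalabrutinib there it was higher by 0.65 (adjusted p = 0.036), lost without acalabrutinib replicate 1 (0.73) or NGI-1 replicate 2 (0.63), with a separate fit of each line (0.057) and in DESeq2 (0.099). At 6 h in HBL1 the difference between NGI-1 and copanlisib was 0.64 (adjusted p = 0.017), lost without copanlisib replicate 1 (0.16), copanlisib replicate 2 (0.063) or NGI-1 replicate 2 (0.19). The line difference of the acalabrutinib effect on DUSP10 at 6 h was -1.47 (95% interval -2.22 to -0.72) and was not called (adjusted p = 0.1).

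SPRED1, a membrane-bound inhibitor that brings neurofibromin to RAS, was lower in 3 comparisons. Of all genes, 7.46% were lower with copanlisib in TMD8 at 6 h. In HBL1 the share was 3.16% with acalabrutinib at 6 h and 17.8% with copanlisib at 24 h. In TMD8 with copanlisib at 6 h the libraries read 16.8 and 16.4 CPM against 27.5 and 26.5 with DMSO. These groups were well apart (log2 change -0.71, SE 0.16, adjusted p = 0.0019), and by 24 h copanlisib read 22 and 20.7 CPM beside 21.2 and 20.1, overlapping with DMSO (0.05, 95% interval -0.28 to 0.39). In HBL1, acalabrutinib at 6 h read 15.8 and 13.9 CPM against 21.4 and 22.9, and copanlisib at 24 h 10.5 and 9.97 against 14.5 and 15.6. Treated libraries were below DMSO in both cases, with changes of -0.58 (SE 0.17, adjusted p = 0.034) and -0.56 (SE 0.19, adjusted p = 0.02). Both HBL1 calls were lost without any 1 of their 4 libraries. For acalabrutinib the adjusted p became 0.12 and 0.14 without DMSO replicates 1 and 2, and 0.088 and 0.29 without acalabrutinib replicates 1 and 2. For copanlisib it became 0.057 and 0.093 without DMSO replicates 1 and 2, and 0.068 and 0.1 without copanlisib replicates 1 and 2.

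SPRED2, the relative of SPRED1 that also restrains RAS, was called lower in 4 comparisons, all of them in TMD8. There, 14.9%, 15.5% and 16% of all genes were lower at 24 h with NGI-1, acalabrutinib and copanlisib. With copanlisib at 6 h the share was 7.46%. At 24 h, DMSO libraries read 22.6 and 20.1 CPM, NGI-1 13.3 and 17.2, acalabrutinib 12.4 and 12.1, and copanlisib 15 and 13.1. All 6 treated libraries were below DMSO. The changes were -0.48 (SE 0.17, adjusted p = 0.026), -0.8 (SE 0.17, adjusted p = 0.00035) and -0.59 (SE 0.17, adjusted p = 0.0059). The NGI-1 call ended without NGI-1 replicate 1 (0.31) or DMSO replicate 1 (0.17), and the copanlisib call without DMSO replicate 1 (0.069) or copanlisib replicate 2 (0.076). Copanlisib at 6 h read 13.4 and 14.3 CPM against 19.5 and 19.8 (-0.5, SE 0.17, adjusted p = 0.039), lost without DMSO replicate 1 (0.14), DMSO replicate 2 (0.14), copanlisib replicate 1 (0.18) or copanlisib replicate 2 (0.13).

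In HBL1, SPRED2 gave 0 calls in edgeR's test and 0 in DESeq2 over 9 comparisons, with 1 at an unadjusted p under 0.05 (acalabrutinib at 6 h), and its log2 changes lay between -0.33 and 0.17. At 24 h in HBL1 the libraries read 49.1 and 51.7 CPM with DMSO and 43.9 to 48.7 with the compounds, a small shift with 95% intervals within -0.44 and 0.2. Line differences of the SPRED2 effect at 24 h were -0.4 for NGI-1, -0.65 for acalabrutinib and -0.44 for copanlisib, and none was called (adjusted p of 0.44, 0.096 and 0.31). A called fall in TMD8 and none in HBL1 is therefore not a shown difference for SPRED2. In TMD8 the NGI-1 libraries at 6 h were higher than those of copanlisib for SPRED2 (0.54, adjusted p = 0.048) and SPRED1 (0.53, adjusted p = 0.045). The SPRED2 call was lost without copanlisib replicate 1 (0.25), copanlisib replicate 2 (0.16), NGI-1 replicate 1 or 2 (0.14 and 0.25), and with RLE size factors (0.051). The SPRED1 call was lost without copanlisib replicate 1 (0.17), copanlisib replicate 2 (0.24) or NGI-1 replicate 2 (0.6).

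**Figure D4:**
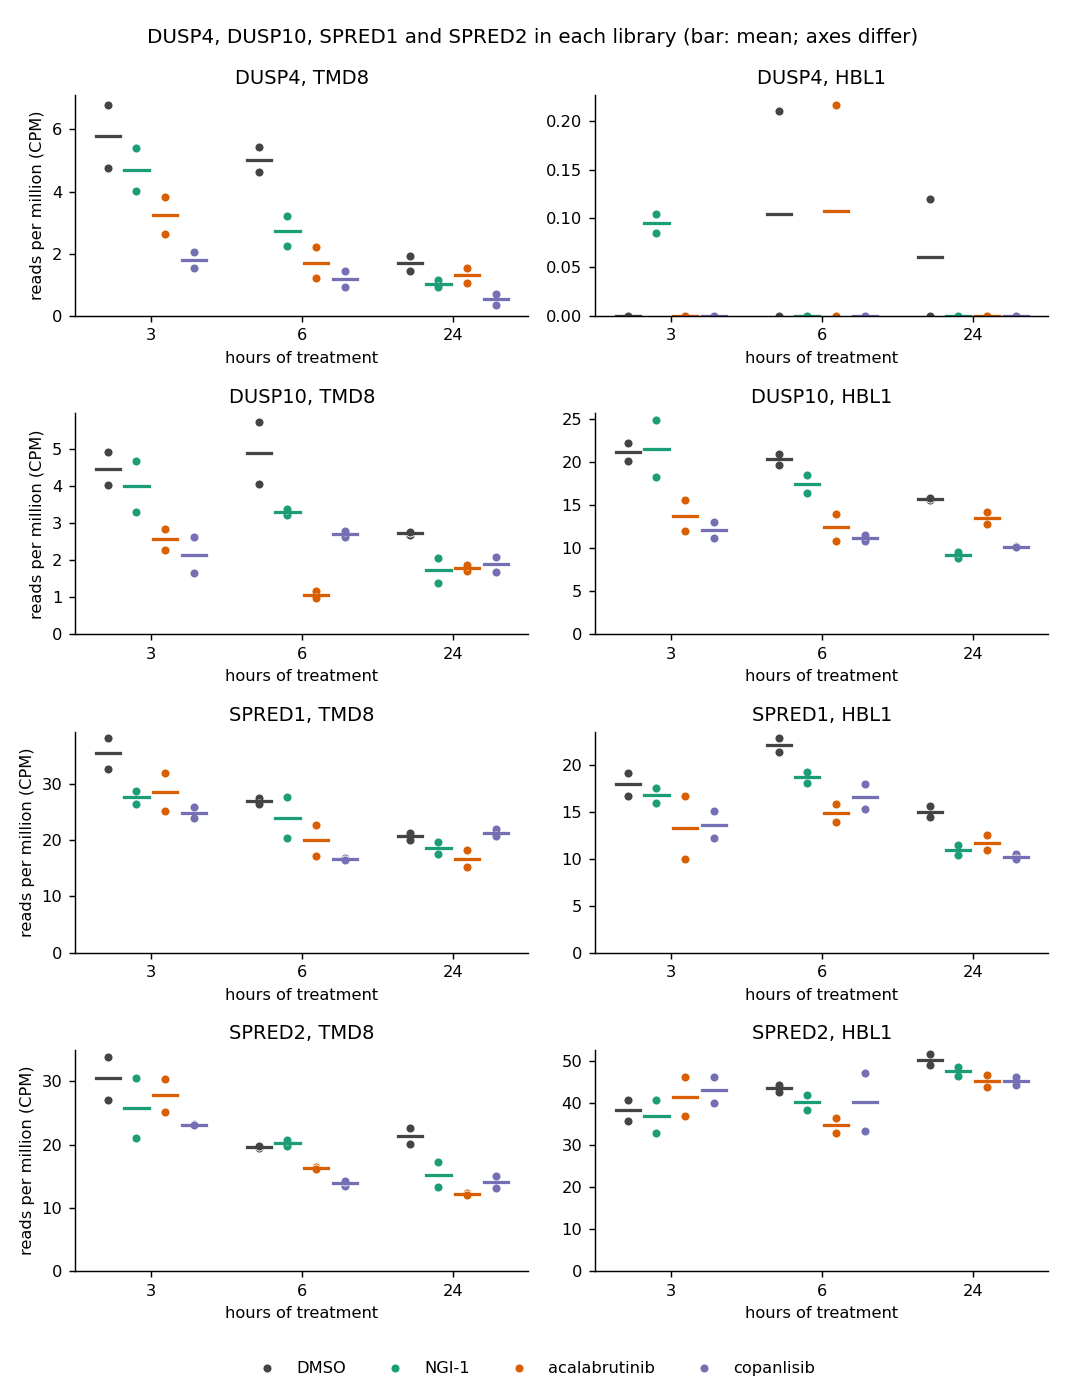
DUSP4, DUSP10, SPRED1 and SPRED2 level in CPM (vertical axes from 0, with different ranges) against hours of treatment in TMD8 and HBL1; each point is 1 library and each bar the mean of 2. DUSP10 in TMD8 is lowest with acalabrutinib at 6 h (mean 1.07 CPM), and SPRED2 in HBL1 stays between 32.9 and 51.7 CPM in all 24 libraries.

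ETV4 fell late. In TMD8 at 24 h, DMSO libraries read 5.6 and 4.39 CPM, NGI-1 1.61 and 1.26, acalabrutinib 1.28 and 1.21, and copanlisib 2.09 and 0.844. Treated libraries were all well below DMSO, with the widest spread for copanlisib. The log2 changes were -1.78 (SE 0.36, adjusted p = 0.00017), -1.98 (SE 0.37, adjusted p = 4.7e-05) and -1.7 (SE 0.35, adjusted p = 0.00022). At 3 h none of the 3 was called for ETV4 in TMD8 (0.17, -0.34 and 0.07), and DMSO libraries there already differed, at 6.26 and 10.7 CPM. At 6 h copanlisib read 4.28 and 4 CPM against 8.66 and 7.16 (-0.94, SE 0.27, adjusted p = 0.012), lost without DMSO replicate 1 (0.16), copanlisib replicate 1 (0.056) or copanlisib replicate 2 (0.12).

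In HBL1, ETV4 was higher and its log2 changes at 3 and 6 h lay between -0.17 and 0.06, none of them called, while at 24 h NGI-1 separated from the others. DMSO libraries read 22.3 and 21.2 CPM at 24 h, NGI-1 8.11 and 6.83, acalabrutinib 15.8 and 12.8, and copanlisib 12.1 and 13.4. Every treated library was below DMSO, and NGI-1 was lowest. The changes were -1.54 (SE 0.22, adjusted p = 1.9e-06), -0.61 (SE 0.2, adjusted p = 0.028) and -0.78 (SE 0.2, adjusted p = 0.003). The acalabrutinib call was lost without DMSO replicate 1 (0.15), DMSO replicate 2 (0.063) or acalabrutinib replicate 2 (0.24), and in DESeq2 (0.051).

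NGI-1 gave lower ETV4 in HBL1 at 24 h than acalabrutinib, by -0.93 (SE 0.23, adjusted p = 0.013), and than copanlisib, by -0.76 (SE 0.23, adjusted p = 0.043). The first call was lost without acalabrutinib replicate 1 (0.19), NGI-1 replicate 1 or 2 (0.07 and 0.16). The second was lost without copanlisib replicate 1 (0.11), copanlisib replicate 2 (0.23), NGI-1 replicate 1 or 2 (0.12 and 0.28). In TMD8 the compounds were not found to differ at 24 h, with ETV4 differences of 0.2 for NGI-1 minus acalabrutinib (95% interval -0.79 to 1.19) and -0.08 for NGI-1 minus copanlisib (-1.03 to 0.87). The line difference of the ETV4 effect at 24 h was -0.24 (-1.13 to 0.65) for NGI-1, -1.37 (-2.25 to -0.49, adjusted p = 0.059) for acalabrutinib and -0.93 (-1.78 to -0.07, adjusted p = 0.24) for copanlisib, none called.

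For ETV4 the effect at 24 h was lower than that at 3 h in 4 of 6 tests. The difference in TMD8 was -1.95 (SE 0.44, adjusted p = 0.0021) for NGI-1, -1.64 (SE 0.46, adjusted p = 0.011) for acalabrutinib and -1.77 (SE 0.43, adjusted p = 0.005) for copanlisib, and in HBL1 -1.48 (SE 0.3, adjusted p = 0.0014) for NGI-1. The acalabrutinib value was lost without DMSO replicate 1 at 3 h (0.079) or 24 h (0.057), or without acalabrutinib replicate 2 at 3 h (0.061) or 24 h (0.058). The copanlisib value was lost without copanlisib replicate 2 at 3 h (0.07) or 24 h (0.077). Over the 8 genes, 13 of 48 such tests were called, 10 lower and 3 higher, and all 3 higher were DUSP5 in TMD8. Among all genes in TMD8, 6.09% were lower and 6.07% higher in this test for NGI-1, 7.88% and 6.7% for acalabrutinib, and 5.82% and 5.09% for copanlisib, and in HBL1 2.59% were lower for NGI-1. For acalabrutinib and copanlisib in HBL1, edgeR and DESeq2 each called 0 of the 8, with 0 and 2 members at an unadjusted p under 0.05, beside 3.91% and 9.39% of all genes called.

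ETV5, the close relative of ETV4, was called in 3 comparisons, all at 24 h. Of all genes, 14.9% were lower there with NGI-1 in TMD8, 15.5% with acalabrutinib in TMD8 and 11.4% with NGI-1 in HBL1. In TMD8, DMSO libraries read 2.91 and 4.2 CPM, NGI-1 1.38 and 1.49, acalabrutinib 1.49 and 1.1, and copanlisib 2.58 and 1.09. The treated libraries were all below DMSO, though on few reads. The changes were -1.31 (SE 0.41, adjusted p = 0.013) with NGI-1, -1.45 (SE 0.41, adjusted p = 0.0061) with acalabrutinib, and -0.91 (SE 0.38, adjusted p = 0.064, not called) with copanlisib. That last value passed without a filter on low counts (0.023), in DESeq2 (0.04) and without copanlisib replicate 1 (-1.71, adjusted p = 0.016). The NGI-1 call was lost without NGI-1 replicate 1 (0.083), NGI-1 replicate 2 (0.061) or DMSO replicate 2 (0.16), and the acalabrutinib call without DMSO replicate 2 (0.11) or acalabrutinib replicate 2 (0.075).

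Before 24 h, several ETV5 values lay above DMSO without passing the test in the main analysis. With a block for replicate number within each line and time, higher calls against DMSO over the 8 genes numbered 7 in place of 3. The ETV5 value of NGI-1 at 6 h in TMD8 was among these. At 6 h in TMD8 the NGI-1 libraries read 6.53 and 9.46 CPM against 5.11 and 4.18 with DMSO (0.78, 95% interval 0.2 to 1.36, adjusted p = 0.12, but 0.031 without a filter on low counts), and in HBL1 22 and 20 against 14.9 and 16 (0.44, 0.01 to 0.88, adjusted p = 0.49). In both lines these NGI-1 libraries lay above both DMSO libraries. The share of all genes that separate in this way is not given here, so the separation is description only. Copanlisib in HBL1 read 28.3 and 37.9 CPM at 3 h against 20.7 and 26.6 with DMSO (0.48, 95% interval 0.08 to 0.88, adjusted p = 0.26), and 18.7 and 22.2 at 6 h (0.41, -0.03 to 0.84, adjusted p = 0.25), also above both DMSO libraries of their time. At 24 h in HBL1, NGI-1 read 9.06 and 7.87 CPM against 13.1 and 13.7, a change of -0.66 (SE 0.24, adjusted p = 0.048). That call ended without NGI-1 replicate 1 (0.099) or 2 (0.24), without DMSO replicate 1 (0.14) or 2 (0.14), with RLE size factors (0.056), with a stricter filter (0.053) and in DESeq2 (0.054).

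**Figure D5:**
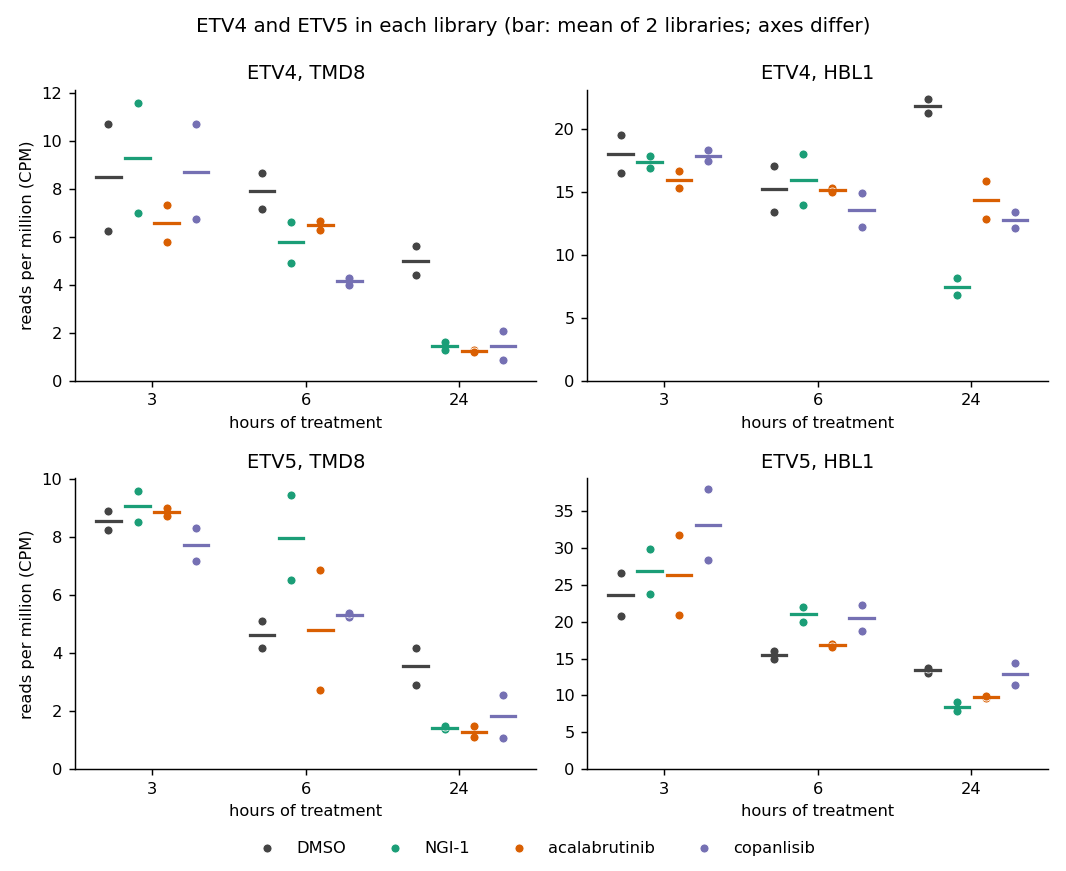
ETV4 and ETV5 level in CPM (vertical axes from 0, with different ranges) against hours of treatment in TMD8 and HBL1; each point is 1 library and each bar the mean of 2. At 24 h the ETV4 means are 4.99 CPM with DMSO and 1.25 to 1.46 with the compounds in TMD8, and 21.7 with DMSO and 7.47 with NGI-1 in HBL1.

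Without any compound the lines already differed for most of the 8 genes. Of 24 tests under DMSO, 21 were called, 8 higher and 13 lower in TMD8, where 33.1%, 33.2% and 32.2% of all genes were higher and 32.2%, 32.6% and 33.8% lower at 3, 6 and 24 h, so such calls are common between these lines. Higher in TMD8 at every time were DUSP4 and DUSP5, the latter by 3.21 (SE 0.17), 2.62 (SE 0.17) and 3.5 (SE 0.19). DUSP4 entered the tests only through its TMD8 reads, as the HBL1 libraries held 7 in all. Its 3 calls here are therefore no support for a line difference. Under the stricter filter, which dropped DUSP4, the higher calls were 5 in place of 8. Lower in TMD8 at every time were DUSP10, by -2.26 (SE 0.2), -2.06 (SE 0.19) and -2.52 (SE 0.21), and ETV5, by -1.45 (SE 0.23), -1.73 (SE 0.26) and -1.9 (SE 0.27). ETV4 was lower by -1.12 (SE 0.22), -0.94 (SE 0.22) and -2.13 (SE 0.23), and SPRED2 by -0.34 (adjusted p = 0.04), -1.15 (SE 0.15) and -1.24 (SE 0.15).

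DUSP2, which responded most, was not found to differ between the lines under DMSO at 3 h (-0.1, 95% interval -0.37 to 0.18) and 6 h (0.06, -0.21 to 0.33), and lower in TMD8 at 24 h (-0.46, adjusted p = 0.0088). SPRED1 was higher in TMD8 at 3 h by 0.98 (SE 0.16) and at 24 h by 0.45 (adjusted p = 0.018). Calls lost without 1 DMSO library were SPRED2 at 3 h (TMD8 replicate 1, adjusted p = 0.41, or HBL1 replicate 2, 0.23), DUSP2 at 24 h (HBL1 replicate 2, 0.075) and SPRED1 at 24 h (TMD8 replicate 1, 0.078, or HBL1 replicate 1, 0.11).

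The members also fell with time in DMSO. In TMD8 all 8 were lower at 24 h than at 3 h, where 15.9% of all genes were lower. The changes ran from -0.5 for SPRED2 and -0.69 for DUSP10 to -1.71 for DUSP2 and -1.8 for DUSP4. In HBL1, DUSP2 (-1.35), DUSP5 (-1.04), ETV5 (-0.82) and DUSP10 (-0.44) were lower, where 19.2% of all genes were lower, and SPRED2 was higher (0.39), where 20.8% were higher. ETV4 in HBL1 did not follow (0.27, 95% interval -0.13 to 0.68). In TMD8 the DUSP10 call was lost without DMSO replicate 1 at 3 h (0.061) or 24 h (0.12) or replicate 2 at 3 h (0.19) or 24 h (0.12), without a filter on low counts (0.068), with a separate fit (0.051) and in DESeq2 (0.069). There too, SPRED2 was lost without DMSO replicate 2 at 3 h (0.17) or 24 h (0.12), and ETV4 (-0.74) without DMSO replicate 2 at 3 h (-0.33, adjusted p = 0.46) or 24 h (0.22). In HBL1, DUSP10 was lost without DMSO replicate 1 at 24 h (0.11) or replicate 2 at 3 h (0.099) or 24 h (0.1). SPRED2 in HBL1 was lost without replicate 1 at 3 h (0.32) or 24 h (0.051) or replicate 2 at 3 h (0.06) or 24 h (0.11), and in DESeq2 (0.066).

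Taking levels after removal of the mean of each line and time, DUSP2 ran with TNF (Pearson r = 0.96), IL10 (0.96) and JUNB (0.95) over the 24 groups, genes for 2 cytokines and an AP-1 subunit. The genes most like DUSP10 were DUSP1 (0.89), LOC100288133 (0.88) and ZC3H12A (0.87), and those most like ETV4 were TYMP (0.94), MRPL12 (0.93) and ALDH18A1 (0.92). DUSP5 stood with CTSC (0.9), TLE1 (0.89) and FUT8 (0.87), SPRED1 with HNRNPU (0.91), BMI1 and PDP2 (0.89 each), and SPRED2 with C9orf21 (0.87), SLC16A1 and DRAM (0.85 each). ETV5 had EIF4EBP1 and PDK1 (0.83 each) and SLC16A3 (0.75). No such genes are given for DUSP4, which had almost no reads in HBL1. These are descriptions over 24 groups, picked as the highest of many genes, and groups of 1 line and time share a centring mean. Within the members, DUSP5 and DUSP2 correlated at -0.51 over the 12 groups of TMD8 and 0.77 over those of HBL1, and DUSP5 and ETV4 at -0.86 and 0.4.

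Other genes of the pathway, in 5 lists that hold no member, were read in the same 18 comparisons, where all genes tested were called lower in 6.17% and higher in 5.37% of tests. These lists, too, were chosen with earlier results of these data known. ERK output genes (11 of 13 tested) were lower in 59 of 198 tests (29.8%) and higher in 4 (2.02%), with medians from -1.4 to -0.11. With copanlisib in TMD8 at 6 h, EGR2 and MYC, both immediate early transcription factor genes, changed by -3.85 (SE 0.31, adjusted p = 3e-12) and -1.31 (SE 0.14, adjusted p = 4.5e-09), and EPHA4, a receptor tyrosine kinase gene, by 0.67 (SE 0.1, adjusted p = 4e-06) at 24 h. The other MAPK phosphatases (5 of 6 tested) were lower in 6 of 90 tests (6.67%) by edgeR and in 2 by DESeq2, with medians from -1.01 to 0.13. Both called 0 higher, where 19 tests in either direction had an unadjusted p under 0.05. The lowest adjusted p among them were DUSP8 with copanlisib in TMD8 at 6 h (-2.1, SE 0.6, adjusted p = 0.014) and DUSP7 with acalabrutinib in TMD8 at 24 h (-1.01, SE 0.36, adjusted p = 0.027). DUSP6, a classic ERK feedback gene, had 131 reads in 48 libraries, too few to test.

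Of the Sprouty and SPRED genes and NF1 outside the members, 3 of 6 could be tested and 0 of 54 tests were called by edgeR or DESeq2, with 5 at an unadjusted p under 0.05 and medians from -1.43 to 0.98. SPRY2 had 0 reads in the 48 libraries, which allows up to 3 reads. The RAS-ERK cascade itself (20 of 20 tested) was lower in 24 of 360 tests (6.67%) and higher in 12 (3.33%), by DESeq2 in 20 and 13, with medians from -0.09 to 0.09. There the exchange factor RASGRP1 fell with acalabrutinib in HBL1 at 6 h (-1.6, SE 0.17, adjusted p = 1.3e-08) and HRAS with NGI-1 in TMD8 at 24 h (-0.87, SE 0.15, adjusted p = 1.1e-05). RASGRP3 rose with copanlisib in TMD8 at 24 h (0.47, SE 0.08, adjusted p = 7e-06) and SOS1 with acalabrutinib (0.42, SE 0.09, adjusted p = 0.00037). JNK and p38 kinases (7 of 7 tested) were lower in 6 of 126 tests and higher in 6 (4.76% each), and by DESeq2 in 4 and 3, with medians from -0.19 to 0.14. MAP2K3 with NGI-1 in TMD8 (0.29, adjusted p = 0.011) and MAP2K7 with copanlisib in HBL1 (0.33, adjusted p = 0.013) were higher at 24 h, while in HBL1 MAPK9 with acalabrutinib (-0.4, adjusted p = 0.0035) and MAP2K4 with copanlisib (-0.34, adjusted p = 0.006) were lower. Medians are over genes with reads in both groups, and a share of calls near that of all genes is no result about a list.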

How the data were processed

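The values used are read counts per gene as the authors deposited them. Per the submitters' processing notes, HTSeq did the counting and hg19 was the genome build. The sources used here name no aligner and no version. The deposited table held 48 libraries and 25066 genes, of which 3449 had no gene ID (0.81% of the reads) and were kept. A row of mapped totals was left out. The analysis used edgeR 4.0.16 with limma 3.58.1 in R 4.3.3. After TMM scaling, 13881 genes passed filterByExpr, and a model with 1 mean per group (24 groups, 24 residual degrees of freedom) gave quasi-likelihood tests. Genes were called at a Benjamini-Hochberg adjusted p under 0.05 within each comparison. Intervals are 95%. CPM used the scaled library sizes, and log2 CPM a prior count of 2. Dispersion was 0.00539 in common (7.3% as a coefficient of variation), and replicates differed by more than sampling noise (chi-square per degree of freedom 2.63 to 9.04).

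The members and the gene lists were chosen with earlier results of these data known. All 8 members are named. Pathway lists give at most 2 genes in each direction, those of lowest adjusted p, and each member except DUSP4 the 3 genes of highest correlation (mean log2 CPM 1 or more). Alternatives were RLE size factors, dropping the filter on low counts, requiring 1 CPM in 2 libraries with a mean of 1 on the log2 scale (the stricter filter), DESeq2 1.42.0, a replicate block over all groups or within each line and time, a separate fit of each line, and each library left out in turn. In the last, the tested genes and the dispersion trend of all 48 libraries were kept, and the remaining library of a group was assumed to vary like the other groups. For single genes, the libraries left out were those of the comparison. The code was tested on simulated counts.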

Additional observations from a re-analysis of the deposited data

Results flagged for a closer look

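The effect of a compound differed between TMD8 and HBL1 in 7 of 72 tests of that difference. In the comparisons and directions of these calls, 0.122% to 2.23% of all genes were called. For DUSP2 the log2 difference, TMD8 minus HBL1, was -1.54 for acalabrutinib and -0.89 for copanlisib at 6 h, and -2.81 and -1.5 at 24 h. For DUSP5 at 24 h it was 1.28 with NGI-1, 1.13 with acalabrutinib and 1.52 with copanlisib. The DUSP2 call for copanlisib at 6 h and the DUSP5 calls for NGI-1 and acalabrutinib depended on single libraries, as given above.

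The effect at 24 h differed from that at 3 h in 13 of 48 tests. Of all genes, 5.09% to 7.88% were called per compound and direction in TMD8. In HBL1, 2.59% were lower for NGI-1. For DUSP2 the difference was -0.86 with NGI-1 and -1.89 with acalabrutinib in TMD8, and -1.51 with NGI-1 in HBL1. For ETV4 in TMD8 it was -1.95 with NGI-1, -1.64 with acalabrutinib and -1.77 with copanlisib, and in HBL1 -1.48 with NGI-1. DUSP5 in TMD8 gave 0.86, 0.92 and 0.83 with NGI-1, acalabrutinib and copanlisib. Acalabrutinib in TMD8 also gave -0.68 for SPRED2 and -1.49 for ETV5, and NGI-1 in HBL1 -0.8 for DUSP10.

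Among these 13, several depended on single libraries. The SPRED2 value had adjusted p of 0.042, and 0.05 to 0.23 without DMSO replicate 1 at 3 h or 24 h, DMSO replicate 2 at 24 h, acalabrutinib replicate 2 at 3 h or either acalabrutinib replicate at 24 h. The ETV5 value had 0.034, and 0.053 to 0.2 without any of the 8 libraries of its comparison except DMSO replicate 1 at 24 h. The DUSP10 value had 0.042, and 0.074 to 0.27 without any of its 8 libraries except NGI-1 replicate 1 at 3 h, 0.072 without a filter on low counts and 0.096 in DESeq2. The other values that a single library ends are given with their genes in the comparisons they belong to.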

How the results depend on the processing

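Of 125 called results for single genes, 71 were ended by no alternative, and of the 51 calls against DMSO, 27 were ended by none. None of the called results reversed. Another 19 results against DMSO that were not called became so under some alternative, each of them with the nested block described next. Among them in HBL1 were DUSP2 with NGI-1 at 6 h and DUSP5 with acalabrutinib at 3 h and 6 h and with NGI-1 at 24 h. In TMD8 they included ETV5 with NGI-1 at 6 h and with copanlisib at 24 h.

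The replicate numbers were checked for pairing: same-numbered libraries of a compound and DMSO deviated together at r of 0.05 to 0.24, over 0.1 in 11 of 18 cases (all 9 in HBL1 and 2 of 9 in TMD8), and the labels do not say that a number marks a batch. The replicate block gave 54 calls against DMSO in place of 51, and one nested in line and time gave 70. That second block gave 7 higher calls against DMSO in place of 3, 36 calls between compounds in place of 20 (27 higher in place of 14) and 5 in place of 3 higher calls between 24 h and 3 h. Calls between lines in the compound effect went from 7 to 12 (8 lower in place of 4) with the replicate block and to 16 (6 higher, 10 lower) with the nested block, and to 13 (5 higher, 8 lower) without a filter on low counts. Under the stricter filter, higher calls between lines under DMSO went from 8 to 5, since DUSP4 was filtered out. DESeq2 gave 0 in place of 1 higher call over time under DMSO.

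When each library was left out in turn, calls against DMSO ran from 46 to 54 (higher 2 to 3, lower 43 to 51), and those between compounds from 17 to 21. Calls between lines in the compound effect ran from 5 to 10 (higher 1 to 4, lower 3 to 6), with 1 higher call without the second HBL1 DMSO library at 24 h. Calls between 24 h and 3 h ran from 9 to 14 (lower 6 to 11), with 6 lower without the first TMD8 DMSO library at 3 h. Those between lines under DMSO ran from 20 to 21, and over time under DMSO from 10 to 13 (higher 0 to 1). The lowest counts behind a call against DMSO were those of DUSP4 and DUSP10 in TMD8, down to 10 and 19 reads per group. In HBL1 DUSP4 had too few reads for any compound effect to be detectable. Its calls between lines under DMSO rested there on 0, 2 and 1 reads per group at 3, 6 and 24 h.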
